A study of Homo sapiens with 6 samples.

Results

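Aldehyde dehydrogenases are enzymes that oxidise aldehydes to carboxylic acids with NAD or NADP as the electron acceptor. This account covers 10 genes of the family, ALDH1A1, ALDH1A3, ALDH1B1, ALDH2, ALDH3A1, ALDH3A2, ALDH3B1, ALDH7A1, ALDH9A1 and ALDH1L2, chosen by name from the 62700 genes of the table. Each was matched through its Ensembl identifier, and gene positions below are those of GENCODE 29 (GRCh38), not of the table. RNA was sequenced from A549, an established epithelial line of human lung adenocarcinoma, in 2 groups of 3 libraries. The sgControl libraries come from cells labelled wild type with a control guide RNA, and the sgH2AC19 libraries from cells with a guide against the histone H2A gene H2AC19, whose derivatives the series calls knockouts. No treatment or time point separates the groups, and both were grown in the same serum-supplemented medium. Whether the knockout cells are 1 clone or a pool, and whether replicates were separate cultures, is not given in the sources used here. The p-values therefore reflect the spread of these 6 libraries alone, and that spread may be technical.

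The family is best known for detoxification and for making signalling molecules. Cytosolic ALDH1A enzymes convert retinaldehyde to retinoic acid, the ligand of the retinoic acid receptors, and mitochondrial ALDH2 clears the acetaldehyde that alcohol breakdown leaves. ALDH3 enzymes act on longer and lipid-derived aldehydes, and other members serve the breakdown of lysine, of choline-related amines and of folate-bound formyl groups. ALDH1A1 and ALDH3A1 are known to be abundant in A549, a line whose KEAP1 mutation keeps the antioxidant factor NRF2 active, and ALDH activity is widely used as a marker of stem-like cells in lung cancer.

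Levels are given as FPKM, fragments scaled to the length of the gene and to the fragment total of the library, which allows genes to be compared per length. The read totals that the steps between values imply ranged from 35681162 to 45738439 per library. H2AC19 was listed at 0 in all 6 libraries, controls included. It thus gives no check of the knockout, and every direction below rests on the labels alone. The 6 epithelial markers EPCAM, KRT8, KRT18, KRT19, CDH1 and KRT7 were at 1 FPKM or more in every library. They summed to 833 to 863 FPKM in sgControl and to 964 to 1011 in sgH2AC19, but went both ways: EPCAM, KRT8, KRT18 and CDH1 were called higher, KRT19 lower (59.9 ± 2.22 to 43.5 ± 2.66 FPKM, SD, n = 3) and KRT7 lower (243 ± 3.78 to 214 ± 5.65). The calls of KRT8, KRT18 and KRT19 held without any 1 library. That of EPCAM held only without sgH2AC19 replicate 2, that of CDH1 only without sgH2AC19 replicate 2 or 3, and that of KRT7 was lost without sgControl replicate 2 or 3 (limma adjusted p up to 0.112, 0.132 and 0.0609). The 5 endothelial markers summed to 0.129 to 0.204 FPKM in sgControl and 0.213 to 0.269 in sgH2AC19. Of these only PECAM1 was separated, higher in sgH2AC19 (0.0656 ± 0.0116 to 0.127 ± 0.0161 FPKM, 16 to 48 recovered reads). The 6 leukocyte markers summed to 0.796 to 1.01 and 0.715 to 1.08, with CD3E at 0 in every library. Most of this came from ITGAM, at 0.893 ± 0.151 and 0.812 ± 0.189 FPKM with overlapping groups. The 7 fibroblast markers summed to 3.38 to 3.87 FPKM in sgControl and 5.30 to 6.17 in sgH2AC19, mostly from LUM. Of the 7, LUM, COL1A1, COL3A1 and COL1A2 were higher in sgH2AC19 without overlap, and PDGFRA, PDGFRB and DCN overlapped. COL3A1 was at 0.0301 ± 0.0127 and 0.115 ± 0.0410 FPKM and PDGFRB at 0.00746 ± 0.00775 and 0.0492 ± 0.0465. DCN was at 0.0391 or less in every library, while COL1A2 rests on 0 to 2 recovered reads per library. LUM and COL1A1, looked at after their values were seen, were called higher in sgH2AC19 (2.81 ± 0.299 to 3.97 ± 0.434 and 0.641 ± 0.0641 to 1.39 ± 0.124 FPKM, SD, n = 3), and LUM lost its call without sgControl replicate 2 (limma adjusted p = 0.0697) or 3 (0.0613) or sgH2AC19 replicate 1 (0.0570) or 2 (0.0608) and over all genes above 0 FPKM (0.0851). The part of these markers in the results below was not tested. Library sgH2AC19 replicate 3 stood apart from replicates 1 and 2 on the second principal component (18.2% of the variance, −16.0 against 8.09 and 8.32). In bulk RNA, fewer cells that express a gene and less RNA per cell cannot be told apart.

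ALDH1A1 (ENSG00000165092, chr9:72900662-73080442, minus strand) was by far the most abundant of the 10. It made up 90.1% to 93.1% of their summed FPKM in each library and ranked 17 or 18 among all genes in sgControl and 13 in every sgH2AC19 library. Without the genes of the mitochondrial genome the ranks were 5 in each sgControl library and 2 in each sgH2AC19 library. ALDH3A1 came second, at 114 ± 12.5 FPKM in sgControl (SD, n = 3).

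In sgControl the order of mean levels after these was ALDH9A1 (22.5 FPKM), ALDH3B1 (20.6), ALDH1B1 (20.2), ALDH3A2 (16.1), ALDH1L2 (8.37), ALDH2 (6.13), ALDH7A1 (3.82) and ALDH1A3 (2.42). The libraries of ALDH3B1 and ALDH1B1 overlapped, and those of the other neighbours in the order did not. In sgH2AC19 ALDH3B1 moved above ALDH9A1, and ALDH9A1 then overlapped with ALDH1B1, and ALDH1L2 with ALDH2.

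**Figure D1:**
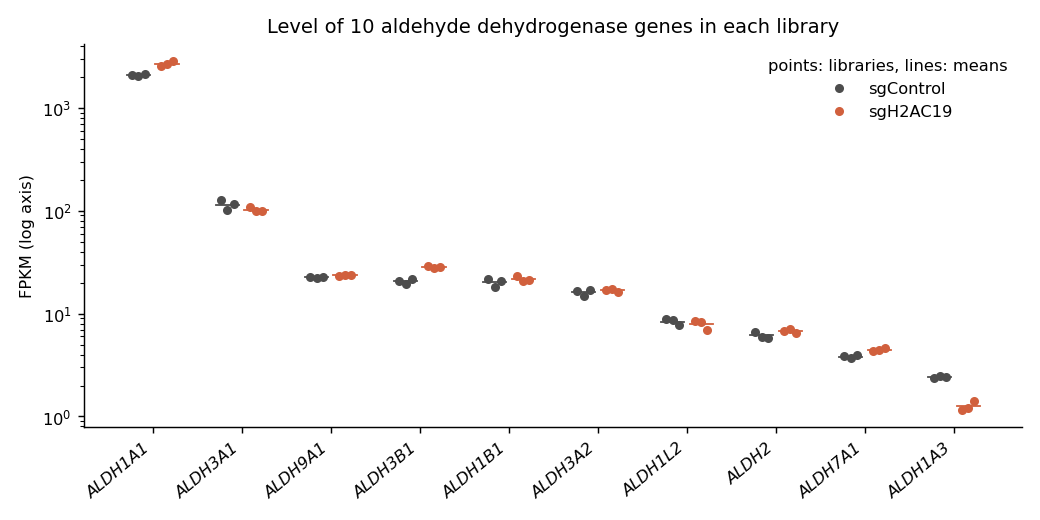
FPKM of each gene on a log axis, with 1 point per library, sgControl in dark grey and sgH2AC19 in orange, and lines at the group means. ALDH1A1 lies at 2058 FPKM or more in all 6 libraries, ALDH1A3 is the lowest gene in both groups, and the groups separate for ALDH1A1, ALDH3B1, ALDH7A1, ALDH9A1 and ALDH1A3.

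The comparison of the design is sgH2AC19 against sgControl. All 10 genes passed the filter of at least 1 FPKM in at least 3 libraries, and each did so in both groups. Of these, 3 rose (ALDH1A1, ALDH3B1 and ALDH7A1), 1 fell (ALDH1A3) and 6 were not called by limma on log2(FPKM + 1) at a Benjamini-Hochberg adjusted p below 0.05. Over all 12871 genes tested 23.1% were called, 12% up and 11% down. In 5 of the 10 the groups did not overlap, 4 of them higher and 1 lower in sgH2AC19. Of all genes tested 43.2% were separated in this way, 21.5% higher and 21.7% lower. The median log2 fold change of the 10 genes was 0.08, beside −0.0051 over all genes tested. Without 1 library it ranged from 0.044 (without sgControl replicate 2) to 0.11, and the median over all genes from −0.014 to 0.0075 (without sgH2AC19 replicate 3). The share of separated genes among the 10 is near that of all genes and shows nothing particular to the family.

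**Figure D2:**
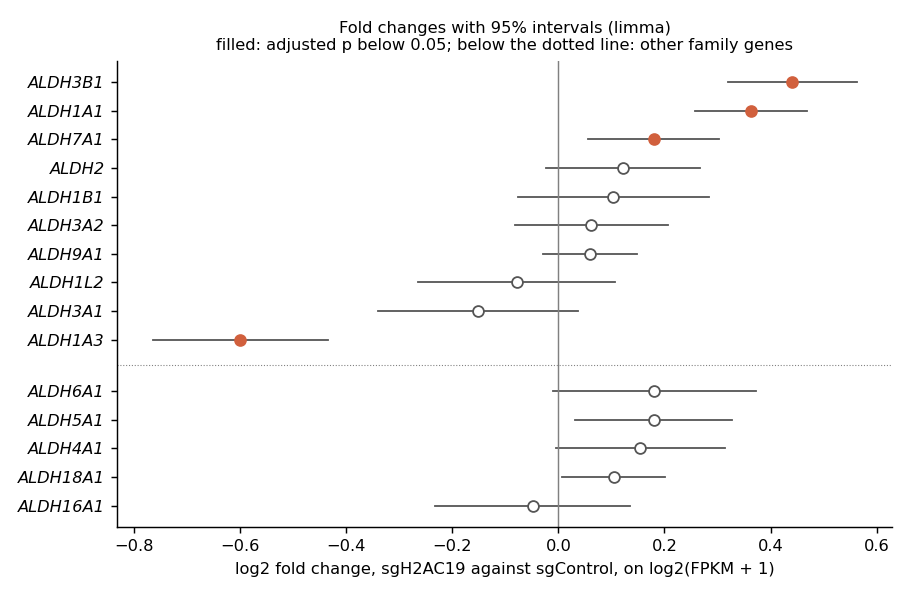
Log2 fold changes of sgH2AC19 against sgControl on the log2(FPKM + 1) scale with 95% intervals from limma, for the 10 genes and, under the dotted line, 5 other family genes that passed the filter. Filled points passed the threshold: ALDH3B1, ALDH1A1 and ALDH7A1 lie to the right of 0 and ALDH1A3 to the left.

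The retinaldehyde dehydrogenases ALDH1A1 and ALDH1A3 moved in opposite directions. ALDH1A1 was at 2077, 2058 and 2108 FPKM in sgControl replicates 1 to 3 and at 2555, 2658 and 2824 in sgH2AC19. All sgH2AC19 libraries were higher, and the spread within sgControl was small. The mean went from 2081 ± 25.2 to 2679 ± 136 FPKM (SD, n = 3 in each group, as in all means below). On the log2 scale the rise was 0.36 with an SE of 0.0453 (limma adjusted p = 0.00243). Between 213831 and 331866 recovered reads per library lie behind these values. Its share of all FPKM went from between 0.649% and 0.667% to between 0.803% and 0.900%. The call held when any 1 library was left out (adjusted p from 0.00202 to 0.0161) and was lost in the wider test of every gene above 0 FPKM (adjusted p = 0.112).

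ALDH1A3 (ENSG00000184254, chr15:100877714-100916626, plus strand), which makes retinoic acid in several developing tissues and marks stem-like cells in many carcinomas, was at 2.37, 2.48 and 2.42 FPKM in sgControl. In sgH2AC19 replicates 1 to 3 it was at 1.16, 1.20 and 1.43, all below the sgControl libraries. The mean went from 2.42 ± 0.0514 to 1.26 ± 0.144 FPKM, a ratio of 0.521. The log2 fold change was −0.60 (SE 0.0704, limma adjusted p = 0.00207), and −0.90 with a pseudocount of 0.1 in place of 1, which compresses low values less, and −0.95 by voom on the recovered reads. It was the largest change of the 10 genes and ranked 153 by size among the 1422 genes that fell. The values rest on 229 to 524 recovered reads per library. The call held under each of the 13 alternatives. The level of ALDH1A1 was 831 to 875 times that of ALDH1A3 in sgControl libraries and 1980 to 2211 times in sgH2AC19 libraries.

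An antisense gene, ALDH1A3-AS1 (ENSG00000259583), overlaps ALDH1A3 by 23768 bases on the opposite strand of chromosome 15 in GENCODE 29 (GRCh38). It was looked up after the fall of ALDH1A3 had been seen. It was at 0.658, 0.780 and 0.559 FPKM in sgControl and at 1.07, 0.946 and 1.14 in sgH2AC19, so all sgH2AC19 libraries were higher, opposite to ALDH1A3. With 1 FPKM or more in only 2 libraries it did not pass the filter, and in the fit over all genes above 0 FPKM it was not called (log2 fold change 0.30, SE 0.0888, limma adjusted p = 0.147). Its level relative to ALDH1A3 was 0.231 to 0.315 in sgControl and 0.787 to 0.927 in sgH2AC19. Whether the counting used strand is not given in the sources used here, and without strand the reads of overlapping genes cannot be told apart.

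**Figure D3:**
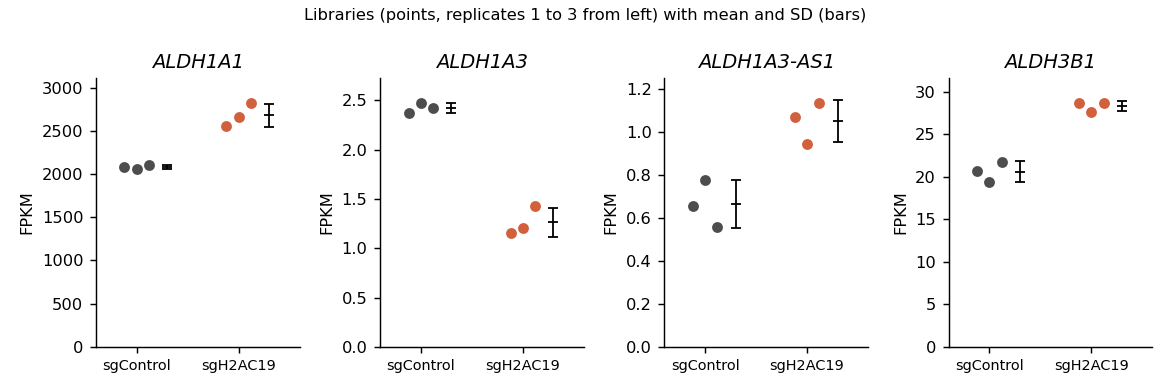
FPKM in each library (points, replicates 1 to 3 from left) with the mean and SD (bars) for ALDH1A1, ALDH1A3, its antisense gene ALDH1A3-AS1 and ALDH3B1, on linear axes from 0. The groups do not overlap in any of the 4 panels, and only ALDH1A3 is lower in sgH2AC19.

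The sequences before the starts of ALDH1A1 and ALDH1A3 are shown, together with that of ALDH3B1, the gene that rose most. The part of these sequences in the changes was not tested. Each is the 250 bases before the transcript start in RefSeq (GRCh38.p14), 5′ to 3′ on the strand of the gene. ALDH1A1 is at chr9:72953054-72953303 on the minus strand, ALDH1A3 at chr15:100879581-100879830 on the plus strand, and the second of 2 starts listed for ALDH3B1 at chr11:68010077-68010326 on the plus strand. All 3 windows lie inside the GENCODE span of their gene, which begins further upstream. Capitals mark any match, on either strand, to the CCAAT box (CCAAT), the GC box (GGGCGG), the TATA box (TATAAA), the AP-1 site (TGACTCA), the core bound by the aryl hydrocarbon receptor (GCGTG) or the antioxidant response element core (TGACNNNGC).
ALDH1A1: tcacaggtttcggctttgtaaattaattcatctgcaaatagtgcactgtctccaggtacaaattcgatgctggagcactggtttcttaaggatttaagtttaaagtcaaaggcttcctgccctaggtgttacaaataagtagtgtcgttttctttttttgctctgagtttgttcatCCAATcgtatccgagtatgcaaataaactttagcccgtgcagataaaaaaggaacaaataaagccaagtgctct
ALDH1A3: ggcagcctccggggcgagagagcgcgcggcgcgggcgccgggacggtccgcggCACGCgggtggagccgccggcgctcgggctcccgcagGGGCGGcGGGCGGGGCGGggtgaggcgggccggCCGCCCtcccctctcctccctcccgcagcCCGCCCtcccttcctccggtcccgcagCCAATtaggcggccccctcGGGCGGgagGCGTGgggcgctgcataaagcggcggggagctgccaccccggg
ALDH3B1: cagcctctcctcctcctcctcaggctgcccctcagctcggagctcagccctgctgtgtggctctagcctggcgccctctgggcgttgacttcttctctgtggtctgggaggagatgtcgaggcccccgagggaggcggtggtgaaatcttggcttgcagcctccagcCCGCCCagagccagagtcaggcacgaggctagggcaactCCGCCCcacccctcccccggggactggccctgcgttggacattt

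The windows of the retinaldehyde dehydrogenases are unlike in composition. That of ALDH1A1 has 38.4% G and C and 6 CpG dinucleotides, and 10.1% of the 35116 windows in the table have a lower GC content. That of ALDH1A3 has 82.4% G and C and 38 CpG, and 98.6% of windows lie lower. Both hold 1 CCAAT box at nearly the same distance, 74 and 71 bases before the start, a word found in 32.0% of all windows of this length. ALDH1A3 further holds 6 GC boxes, of which the ones at 153 and 148 bases before the start overlap, and 2 aryl hydrocarbon receptor cores, words found in 42.6% and 32.2% of windows. In the ALDH3B1 window shown only 2 GC boxes were matched, at 83 and 44 bases before the start. The window of its first listed start, chr11:68008297-68008546, is not shown and held no match. RefSeq windows were matched for 7 of the 10 genes, 9 windows in all. No TATA box, AP-1 site or antioxidant response element core was matched in any of the 9, beside 10.7%, 4.20% and 10.9% of all windows. TGACTCA followed by GC would count for the last 2 words at once. A match describes letters and is no evidence of binding.

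ALDH3B1 (ENSG00000006534, chr11:68008578-68029282, plus strand), a membrane-anchored enzyme for medium- and long-chain aldehydes, rose most. It was at 20.7, 19.4 and 21.8 FPKM in sgControl and at 28.7, 27.7 and 28.7 in sgH2AC19. The sgH2AC19 libraries were all higher and close to each other. The mean went from 20.6 ± 1.20 to 28.4 ± 0.577 FPKM, a log2 difference of 0.44 (SE 0.0520, limma adjusted p = 0.00208), with 4974 to 8701 recovered reads per library. It ranked 434 by size among the 1545 genes that rose and was called under each of the 13 alternatives. Its near relative ALDH3B2, which lies 327377 bases away on the same chromosome, was at 0.0153 FPKM in sgControl replicate 1 and at 0 in the other libraries.

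The other ALDH3 genes were not called. ALDH3A1 (ENSG00000108602, chr17:19737984-19748943, minus strand), a cytosolic enzyme for aromatic and medium-chain aldehydes that aryl hydrocarbon receptor ligands are known to induce, was at 126, 101 and 116 FPKM in sgControl and at 108, 100.2 and 99.8 in sgH2AC19. The groups overlapped, and sgControl varied more. The log2 fold change was −0.15 (95% interval −0.339 to 0.0373, limma adjusted p = 0.214). Without sgControl replicate 2, its lowest control library, the log2 fold change was −0.24 (adjusted p = 0.0544), and without sgControl replicate 1, its highest, it was −0.080 (adjusted p = 0.510). ALDH3A2 (ENSG00000072210, chr17:19648136-19677598, plus strand), the fatty aldehyde dehydrogenase of the endoplasmic reticulum, was at 16.1 ± 1.19 and 16.9 ± 0.574 FPKM, with overlapping groups (log2 fold change 0.062, 95% interval −0.0816 to 0.206, adjusted p = 0.498). For ALDH3A2 the log2 fold change was 0.0050 without sgControl replicate 2, 0.10 without sgControl replicate 3 and 0.041 without sgH2AC19 replicate 2.

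The mitochondrial enzymes for acetaldehyde and related small aldehydes were not called either. ALDH2 (ENSG00000111275, chr12:111766887-111817529, plus strand) was at 6.65, 5.95 and 5.80 FPKM in sgControl and at 6.78, 7.04 and 6.43 in sgH2AC19, overlapping through sgControl replicate 1 and sgH2AC19 replicate 3. Its log2 fold change was 0.12 (95% interval −0.0240 to 0.267, limma adjusted p = 0.197). ALDH1B1 (ENSG00000137124, chr9:38392664-38398661, plus strand), a close relative whose coding sequence lies in a single exon, was at 20.2 ± 1.80 and 21.7 ± 1.48 FPKM with overlapping groups (0.10, 95% interval −0.0758 to 0.283, adjusted p = 0.364). The log2 fold change of ALDH1B1 was 0.032 without sgControl replicate 2 and 0.051 without sgH2AC19 replicate 1. Both intervals include the log2 fold change of 0.18 that was called for ALDH7A1.

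Among genes for lysine, amine and folate metabolism, 1 was called. ALDH7A1 (ENSG00000164904, chr5:126531200-126595418, minus strand), antiquitin, which oxidises a semialdehyde of lysine breakdown, was at 3.85, 3.66 and 3.95 FPKM in sgControl and at 4.31, 4.41 and 4.66 in sgH2AC19. The groups did not overlap. The mean went from 3.82 ± 0.145 to 4.46 ± 0.178 FPKM, a log2 difference of 0.18 (SE 0.0525, limma adjusted p = 0.0472). This call sits at the threshold: it was lost in each fit without 1 library (adjusted p from 0.0707 to 0.150) and with either other scaling of the libraries (0.0604 and 0.0520), over all genes above 0 FPKM (0.117) and with the replicate number as a block (0.0733). Its processed pseudogene ALDH7A1P1, an intronless copy on chromosome 5, was at 8.05 ± 0.397 and 9.12 ± 0.621 FPKM (0.16, adjusted p = 0.103), and whether reads were shared between the copies was not tested, so both values are uncertain.

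ALDH9A1 (ENSG00000143149, chr1:165662216-165698863, minus strand), which oxidises aminoaldehydes on the way to carnitine and to gamma-aminobutyric acid, was at 22.7, 22.4 and 22.5 FPKM in sgControl and at 23.2, 23.6 and 23.7 in sgH2AC19. Every sgH2AC19 library was higher, by little, and the gene was not called (log2 fold change 0.059, 95% interval −0.0297 to 0.148, limma adjusted p = 0.296). ALDH1L2 (ENSG00000136010, chr12:105019784-105084577, minus strand), the mitochondrial formyltetrahydrofolate dehydrogenase, was at 8.80, 8.59 and 7.71 FPKM in sgControl and at 8.42, 8.25 and 6.98 in sgH2AC19. The groups overlapped, and replicate 3 was the lowest in both (−0.079, 95% interval −0.265 to 0.108, adjusted p = 0.509). Without sgH2AC19 replicate 3 the log2 fold change of ALDH1L2 was −0.0033 (adjusted p = 0.975), and it was −0.045 without sgControl replicate 1, −0.13 without sgControl replicate 3 and −0.12 without sgH2AC19 replicate 1.

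Of the 9 other genes of the family, 5 passed the filter and 0 were called by limma, with 2 higher and 0 lower at an unadjusted p under 0.05 and 0 called by voom. ALDH18A1, the proline synthesis enzyme, was the most abundant of them at 24.6 ± 0.313 and 26.5 ± 0.764 FPKM (log2 fold change 0.10, limma adjusted p = 0.112). Without sgH2AC19 replicate 3 it was called (0.13, adjusted p = 0.0442). ALDH5A1, succinic semialdehyde dehydrogenase, was at 3.33 ± 0.262 and 3.90 ± 0.167 FPKM (0.18, adjusted p = 0.0802). ALDH4A1 of proline breakdown was at a log2 fold change of 0.15, ALDH6A1 of valine breakdown at 0.18 and ALDH16A1 at −0.049. The last was at 0.026 without sgH2AC19 replicate 3. The retinaldehyde dehydrogenase gene ALDH1A2 was at 0.104 to 0.159 FPKM, so ALDH1A1 and ALDH1A3 were the members of the ALDH1A group that passed the filter.

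Retinoic acid pathway genes, which act before and after the ALDH1A step, moved both ways. Of 19 listed genes 12 passed the filter, 1 of which rose and 3 fell. The share called, 33.3%, is near the 23.1% of all genes tested and shows nothing particular to the list. The median log2 fold change was −0.061. Without sgControl replicate 3 this median was −0.035, and without sgH2AC19 replicate 2 it was −0.041. At an unadjusted p under 0.05 there were 1 higher and 5 lower genes, and voom called 1 higher and 3 lower. The groups did not overlap for 1 higher and 5 lower genes. DHRS3, a reductase that returns retinaldehyde to retinol, went from 20.8 ± 0.155 to 27.6 ± 1.50 FPKM, a log2 difference of 0.39 (SE 0.0494, limma adjusted p = 0.00250). It was higher in each sgH2AC19 library and held its call without any 1 library.

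The 3 called falls concern uptake, transport and breakdown. STRA6, the cell surface receptor for retinol-binding protein, went from 15.2 ± 0.202 to 12.8 ± 0.555 FPKM (log2 fold change −0.23, limma adjusted p = 0.0135). CRABP2, which carries retinoic acid to its receptors, went from 8.16 ± 0.865 to 6.02 ± 0.452 (−0.38, adjusted p = 0.0174), and CYP26B1, which degrades retinoic acid, from 3.10 ± 0.0886 to 2.26 ± 0.297 (−0.34, adjusted p = 0.0204). For each the libraries of the groups did not overlap, as in 43.2% of all genes tested. The call of STRA6 was lost without sgControl replicate 1 (adjusted p = 0.0550) or 3 (0.0553), CRABP2 without sgControl replicate 1 (0.0570), sgControl replicate 2 (0.0640) or sgH2AC19 replicate 2 (0.0551), and CYP26B1 without any sgControl replicate (0.0579, 0.0730 and 0.0628) or sgH2AC19 replicate 2 (0.0574). CRABP2 and CYP26B1 also lost it in the test of every gene above 0 FPKM (0.0707 and 0.0777). The list thus had 1 call without sgControl replicate 1 and 2 without sgControl replicate 2 or 3 or sgH2AC19 replicate 2. The retinol dehydrogenase genes RDH10 (log2 fold change −0.30, limma adjusted p = 0.118) and RDH11 (−0.11, 0.0680) were not called. Both were lower in every sgH2AC19 library than in any sgControl library, while the groups overlapped for RDH13 (−0.033). The receptor genes RARA, RARG, RXRA and RXRB were not called, with log2 fold changes from −0.090 to 0.16.

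**Figure D4:**
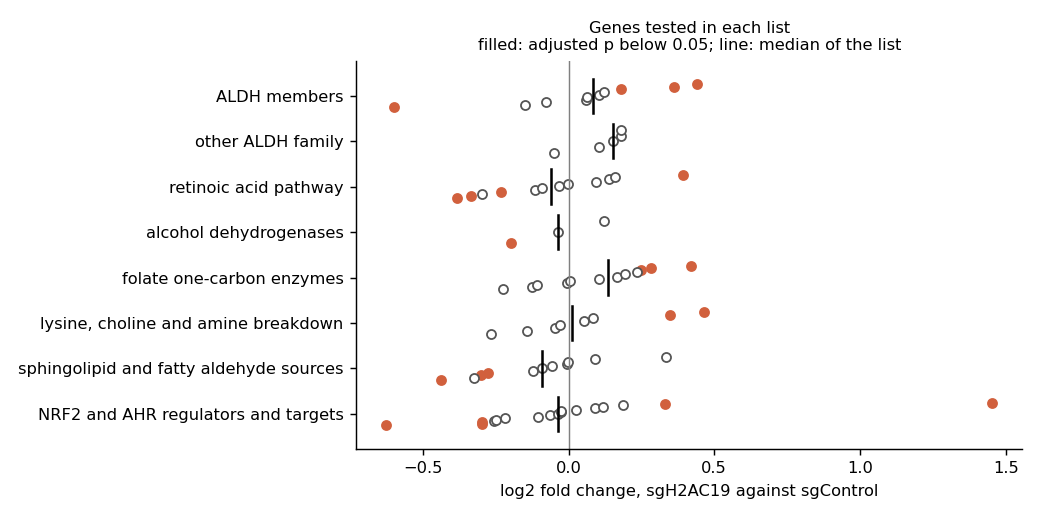
Log2 fold change of every tested gene (points) in the ALDH genes and 7 other lists, filled where the adjusted p was below 0.05, with a line at the median of each list. Medians lie between −0.091 and 0.15, and in the retinoic acid list 3 filled points lie below 0 and 1 above.

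Genes that make the aldehydes or share the cofactors of these enzymes were called at shares of 25% in the folate list, 25% in the lysine, choline and amine list, 33.3% of 3 alcohol dehydrogenase list genes and 27.3% in the sphingolipid and fatty aldehyde list. These are near the 23.1% of all genes tested and show nothing particular to the lists. In the folate list 3 of 12 tested genes rose by limma and 0 fell. At an unadjusted p under 0.05 these counts were 5 and 1, and by voom 3 and 1, and the median log2 fold change was 0.13. SHMT1, the cytosolic serine hydroxymethyltransferase, went from 7.71 ± 0.458 to 9.59 ± 0.418 FPKM (log2 fold change 0.28, limma adjusted p = 0.0140), and MTHFD1L, a mitochondrial formyltetrahydrofolate synthetase, from 12.5 ± 0.713 to 15.0 ± 0.522 (0.25, adjusted p = 0.0180). The mitochondrial arm in which ALDH1L2 acts includes MTHFD1L, which was called higher. In the same arm MTHFD2 was at 36.2 ± 2.04 and 30.8 ± 2.52 FPKM (adjusted p = 0.0562). SHMT2 was at 28.1 ± 0.433 and 25.7 ± 2.08 (adjusted p = 0.184), and neither of these was called. Both MTHFD2 and SHMT2 were lower in every sgH2AC19 library than in any sgControl library (log2 fold changes −0.22 and −0.13). The same held for 21.7% of all genes tested. Without sgH2AC19 replicate 3 there were 5 calls in the list, the call of SHMT1 ended without sgControl replicate 2 (adjusted p = 0.0528), and that of MTHFD1L without sgControl replicate 1 (0.0676), sgControl replicate 3 (0.0649) or sgH2AC19 replicate 2 (0.0561) and over all genes above 0 FPKM (0.0528).

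In the list of lysine, choline and amine breakdown 2 of 8 tested genes rose by limma and 0 fell. Unadjusted p-values under 0.05 were found for 2 higher and 2 lower genes, voom called 2 higher and 0 lower, and the median log2 fold change was 0.013 (−0.0040 without sgControl replicate 2 and 0.032 without sgControl replicate 3). MAOA, a monoamine oxidase whose products are aldehydes, went from 2.29 ± 0.178 to 3.18 ± 0.0827 FPKM (log2 fold change 0.35, limma adjusted p = 0.00881) and held its call without any 1 library. SMOX, spermine oxidase, was at 151, 148 and 146 FPKM in sgControl and at 235, 220 and 167 in sgH2AC19 (0.46, adjusted p = 0.0292). Library sgH2AC19 replicate 3 was the nearest to the controls, without it the adjusted p was 0.000525, and without any other single library it was 0.0702 to 0.0874. Over all genes above 0 FPKM the call of SMOX was lost as well (adjusted p = 0.123). Of the alcohol dehydrogenase list 3 of 10 genes were measured above the filter and 1 fell. The 3 were ADH5, AKR1A1 and CAT, so ADH5 was the only ADH gene tested. The median of the 3 was −0.036, and it was 0.031 without sgH2AC19 replicate 3 and −0.099 without sgH2AC19 replicate 1. ADH5, the formaldehyde-clearing class III enzyme, went from 32.3 ± 1.01 to 28.0 ± 0.930 FPKM (−0.20, adjusted p = 0.0214). Its call was lost without sgControl replicate 1 (0.0791) or 2 (0.0809) or sgH2AC19 replicate 1 (0.0611) or 2 (0.0606).

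Of 11 tested genes for sphingolipid and fatty aldehyde sources 3 fell by limma and 0 rose. Unadjusted p-values under 0.05 were found for 1 higher and 4 lower genes, voom called 0 higher and 4 lower, and the median log2 fold change was −0.091. It was −0.16 without sgH2AC19 replicate 1 and −0.17 without sgH2AC19 replicate 2. Only 10 of the 11 genes passed the filter in those fits, so these medians are over a smaller set. FAR1, a fatty acyl reductase of ether lipid synthesis, was at 22.0, 22.7 and 23.4 FPKM in sgControl and at 14.3, 16.3 and 19.1 in sgH2AC19 (log2 fold change −0.44, limma adjusted p = 0.0178). SGPP1, a sphingosine phosphate phosphatase, fell by 0.30 (adjusted p = 0.0148) and CYP4F12, a fatty acid hydroxylase, by 0.28 (adjusted p = 0.0433; −0.42 by voom). CYP4F12 kept its call in 1 of the 6 fits that left out a library, that without sgH2AC19 replicate 3. SGPP1 lost its own without sgControl replicate 1 (0.0560) or 2 (0.0569), and FAR1 without sgControl replicate 2 (0.0592) or 3 (0.0615) or sgH2AC19 replicate 2 (0.0535). SGPL1, the lyase whose aldehyde product ALDH3A2 oxidises, was at 11.8 ± 0.388 and 11.8 ± 0.182 FPKM (adjusted p = 0.991). Over all genes above 0 FPKM, and without sgControl replicate 2, 0 of the 3 were called, and 1 was without sgControl replicate 1 or 3 or sgH2AC19 replicate 2.

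NRF2 and aryl hydrocarbon receptor genes were listed because both factors are known to regulate ALDH3A1. Of 17 tested, 2 rose (CYP1B1 and AKR1B10) and 3 fell (TIPARP, NFE2L2 and TXNRD1), with a median log2 fold change of −0.037. The share called, 29.4%, is near the 23.1% of all genes tested and shows nothing particular to the list. At an unadjusted p under 0.05 there were 4 higher and 3 lower genes, and voom also called 4 higher and 3 lower. Without sgH2AC19 replicate 3 the calls were 4 up and 3 down and the median was 0.040, and without sgH2AC19 replicate 2 they were 1 up and 4 down with a median of −0.13. The receptor targets CYP1B1 and TIPARP went apart, CYP1B1 from 13.5 ± 1.84 to 38.5 ± 1.67 FPKM (log2 fold change 1.45, limma adjusted p = 0.000324) and TIPARP from 41.2 ± 2.98 to 26.3 ± 1.81 (−0.62, adjusted p = 0.00170). NFE2L2, which encodes NRF2, went from 10.4 ± 0.158 to 8.28 ± 0.646 FPKM (−0.30, adjusted p = 0.0129) and its target TXNRD1 from 364 ± 8.77 to 297 ± 25.4 (−0.30, adjusted p = 0.0185), while the target NQO1 was at 325 ± 5.41 and 353 ± 6.30 (0.12, adjusted p = 0.0512). AKR1B10, an aldo-keto reductase named after its value was seen, went from 249 ± 17.4 to 314 ± 41.4 FPKM (0.33, adjusted p = 0.0456) and lost its call without any 1 sgControl library (0.0645, 0.139 and 0.109), without sgH2AC19 replicate 2 (0.0653), with either other scaling (0.0672 and 0.0510) and over all genes above 0 FPKM (0.173). NFE2L2 lost its call without sgControl replicate 1 (0.0503), and TXNRD1 without sgControl replicate 1 (0.0607) or 2 (0.0664) and over all genes above 0 FPKM (0.0895). The list had 1 rise and 1 fall without sgControl replicate 1, and 1 rise and 2 falls without sgControl replicate 2.

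The genes whose pattern over the 6 libraries was nearest to that of ALDH1A3, the called member with the largest change, were FAM234B, PAQR3 and RAB2B. Nearness was the root mean square difference of log2(FPKM + 1) after centring each gene on its mean, which was 0.017 for FAM234B, 0.018 for PAQR3 and 0.031 for RAB2B. FAM234B was at 5.80, 6.01 and 6.01 FPKM in sgControl and at 3.47, 3.58 and 3.95 in sgH2AC19. All 3 were lower in each sgH2AC19 library and, as in ALDH1A3, sgH2AC19 replicate 3 was the highest of its group. The genes were chosen for this nearness in the same libraries, so the shared pattern follows from the choice and is no separate result.

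**Figure D5:**
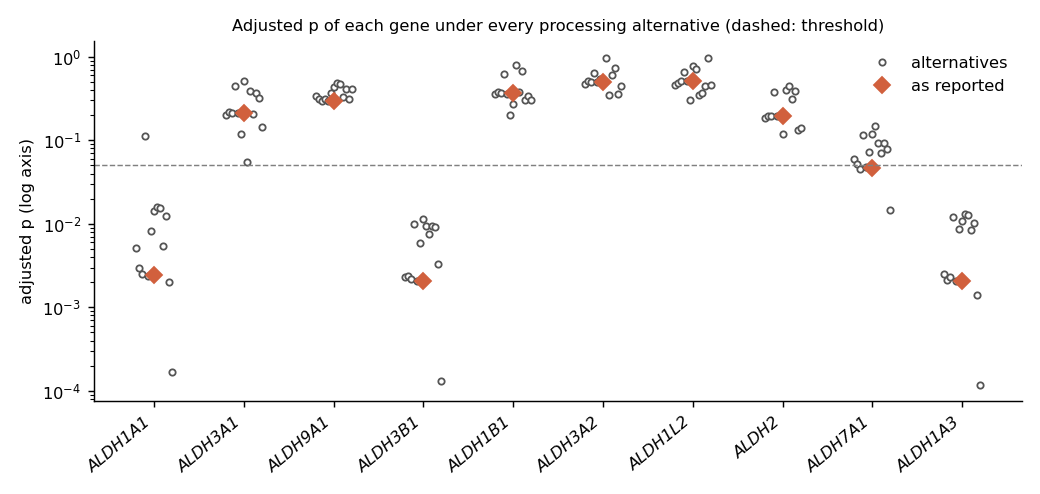
Adjusted p of each of the 10 genes on a log axis as reported (diamonds) and under each of 13 processing alternatives (open circles), with the threshold of 0.05 dashed. ALDH1A3 and ALDH3B1 stay under the line throughout, ALDH1A1 crosses it once, and ALDH7A1 has 10 of its 13 circles above it.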

How the data were processed

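RNA from 6 A549 libraries, 3 sgControl and 3 sgH2AC19, was made into libraries with the SMARTer kit for mRNA-seq that the labels name. The table holds FPKM computed by the authors and deposited with 1 column per library, per the file headers. Aligner, counter, strand setting and annotation were not given in the sources used here, and the submitters' processing notes name only the mouse builds GRCm38 and mm10, whereas all 62700 identifiers matched a table of human genes. In the table sgNC was read as sgControl, and sgH2AC as sgH2AC19.

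The 12871 genes that reached 1 FPKM in 3 or more libraries were tested on log2(FPKM + 1) by limma 3.58.1 in R 4.3.3 with a trend on the mean, two-sided, with Benjamini-Hochberg adjustment over all genes tested. All adjusted p-values are from limma. Fold changes on this scale understate those of low genes. Read totals were recovered from the steps of the FPKM values with GENCODE 29 gene lengths. Whole reads were found for 12831 of the tested genes, within 0.001 reads or a relative 5e-08 for large counts. Where the GENCODE length gave no whole reads, as for each ALDH gene covered here, the smallest length that did was used. Such counts are the smallest that fit, and the true ones may be larger. Intervals cover the spread of these libraries only.

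The 10 genes, the gene lists and the rule for named genes (all 10 genes, other family genes that were measured, up to 4 called genes with the smallest adjusted p per list, and the 3 genes of nearest pattern) were chosen with earlier results of these data known. RARA, RARG, RXRA, RXRB, RDH10, RDH11, RDH13, AKR1A1, CAT, MTHFD2, SHMT2 and SGPL1 were named after their values were seen. So were NQO1, ALDH1A2, ALDH3B2, ALDH1A3-AS1, ALDH7A1P1, AKR1B10 and the cell type markers. A called gene of the folate list is not reported here. Alternatives were other scalings, filters and pseudocounts, the replicate number as a block, each library left out and, chosen after seeing the data, voom on the recovered reads. The steps were tested on simulated data. Python 3.11.15 was used for the other steps.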

Additional observations from a re-analysis of the deposited data

How the results depend on the processing

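Of the 10 genes, 4 were called as reported, 3 in each fit without 1 library, and 2 over all genes above 0 FPKM, and none changed direction under any of the 13 alternatives. Over all genes the 2967 calls became 1553 over all genes above 0 FPKM and 1513 to 3429 without 1 library, the counts without sgControl replicates 1 to 3 being 1663, 1513 and 1632 and that without sgH2AC19 replicate 2 being 1965. Without 1 library, calls ranged from 0 to 1 for the other ALDH genes (0 as reported) and 1 to 4 for the retinoic acid list. They ranged from 0 to 1 for the alcohol dehydrogenase list, 2 to 5 for folate enzymes and 1 to 2 for lysine, choline and amine breakdown. For sphingolipid and fatty aldehyde sources the calls were 0 to 3, and for NRF2 and AHR genes 2 to 7. Over all genes above 0 FPKM these were 2 for retinoic acid, 1 for lysine, choline and amine breakdown, 0 for sphingolipid and fatty aldehyde sources and 3 for NRF2 and AHR genes. With the replicate number as a block there were 2729 calls over all genes and 3 among the 10, ALDH7A1 being lost (adjusted p = 0.0733), and CYP4F12 was lost as well (0.0539). Same-numbered libraries correlated in their deviations from the group means at 0.052, 0.035 and 0.060, under the 0.1 taken to show pairing. Unlike-numbered libraries correlated at −0.046 to 0.0045, so each library correlated best with its own number. Whether a weaker pairing holds was not tested. The log2 fold change of ALDH16A1, −0.049 as reported, ranged from −0.096 to 0.026 without 1 library, turning positive without sgH2AC19 replicate 3. Over 44 named genes and the alternatives that could be fitted for each (COL1A1 is under the filter without any 1 sgH2AC19 library), 482 of 569 values kept direction and side of the threshold, 85 lost the call, 1 gained it and 1 changed sign. The causes were not tested. ALDH1A3, at 229 recovered reads in its lowest library, has the fewest of the 10.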

Other observations

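The ALDH3 genes have relatives on the same chromosome, on the opposite strand and at unlike levels. ALDH3A1 and ALDH3A2 are 60385 bases apart on chromosome 17 in GENCODE 29, and ALDH3A1 stood at 114 ± 12.5 FPKM against 16.1 ± 1.19 for ALDH3A2 in sgControl (SD, n = 3). On chromosome 11 ALDH3B1 was at 20.6 ± 1.20 FPKM, while its relative ALDH3B2 was listed at 0 in 5 of 6 libraries. The level of ALDH3B1 relative to ALDH3A1 was 0.165 to 0.192 in sgControl and 0.267 to 0.287 in sgH2AC19, without overlap. Summed without ALDH1A1, the other 9 genes gave 196 to 229 FPKM in sgControl and 209 to 221 in sgH2AC19, so the higher family total of sgH2AC19, 2775 to 3033 against 2255 to 2326 FPKM, came from ALDH1A1.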
